A study of Homo sapiens with 96 samples.

Results

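The genes described here encode 10 subunits of the BAF complex, the mammalian SWI/SNF chromatin remodeller, among 58521 gene symbols measured: SMARCA4, SMARCA2, SMARCB1, SMARCC1, SMARCC2, SMARCD1, SMARCE1, ARID1A, ARID1B and ACTL6A. They were taken as a fixed list by name, and all 10 were found. BAF uses the energy of ATP to slide or evict nucleosomes and so opens enhancers and promoters. Each complex holds a single ATPase, either SMARCA4 (BRG1) or SMARCA2 (BRM), which ACTL6A joins. In the canonical form, which has ARID1A or ARID1B, it sits on a core of SMARCB1, SMARCD, SMARCE1 and a pair of SMARCC proteins. In mouse embryonic stem cells the complex is known to be built with Smarca4 and Smarcc1 and to lack Smarca2 and Smarcc2.

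The series read poly(A) RNA by SMART-seq2, a full-length single-cell method, from 96 wells of 1 plate, each with 1 cell of HUES64, an established human embryonic stem cell line carrying an inducible knockout of DNMT1. All wells were labelled day 0. The description field gave doxycycline as added and the induction field gave it as not induced, for every well, so the state of the DNMT1 knockout is not settled by the labels. There was 1 group and no named second culture, so the cells are not replicates, no test between conditions was possible, and the SDs below describe the wells of this plate. Values are CPM, reads of a gene scaled so that every library has the same total on genes, over the 84 libraries with at least 100000 reads on genes, 2000 genes with a read and a mitochondrial share of at least 1%. These 84 held 118549 to 1877837 reads on genes (median 768161), and 3 reads in them corresponded to 25.3 down to 1.60 CPM. All 9 pluripotency markers examined averaged at least 10 CPM, as did 15.4% of all gene symbols. Among these markers were POU5F1 with 448 ± 314 CPM and LIN28A with 453 ± 333 CPM (SD, n = 84). The 9 markers summed to 66.3 to 5418 CPM in a library. POU5F1 had no read in 7 of the 84 libraries, SOX2 in 17 and NANOG in 19. The neural, fibroblast and trophoblast or amnion lists had 5 of 8, 2 of 7 and 1 of 6 members averaging 10 CPM or more. Their summed levels ran from 36.97 to 2063, 0 to 879 and 0 to 207 CPM. Highest in those lists were THY1 with 175 ± 136 CPM, PAX6 with 148 ± 182, MAP2 with 116 ± 108, NES with 55.8 ± 88.9, COL1A2 with 41.7 ± 108 and GATA3 with 20.3 ± 29.4, and PAX6 and MAP2 had reads in all 84 libraries. Among the lowest, LUM, DCN, COL3A1, STMN2, CGA and HAND1 had a median of 0 CPM.

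A further 9 libraries with more than 10000 reads on genes had under 1% mitochondrial reads, and POU5F1 at 7.92 CPM. Their reads, 1009549 in all, were pooled as a level to compare with. PAX6 stood at 1044 CPM in that pool, MAP2 at 927 and GATA3 at 153, above their means in the 84 libraries. THY1, NES and COL1A2 stood at 19.8, 8.91 and 9.91 CPM, below theirs. Averaging less than in the pool were 6 of 8 neural, 6 of 6 trophoblast or amnion and 4 of 7 fibroblast markers. This held for 0 of 9 pluripotency markers. It held for 22.6% of the 9003 genes that averaged 10 CPM or more. Of the markers below the pool only PAX6, MAP2, DCX and GATA3 averaged that much, so the share does not apply to the rest. In that pool KCNJ2, a potassium channel gene, stood at 116276 CPM, and reads on it enter the total that scales the other genes. It differed within the pool, with 11619 and 9586 CPM in wells F9 and G3 and 118582 to 175558 CPM in the others.

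Of the 10 subunit genes, 7 matched a promoter in RefSeq (GRCh38.p14), from 250 bases before to 50 after the transcription start, at the first of the starts listed for each gene. SMARCC1, SMARCC2 and ACTL6A had no entry. The promoters of the ATPase genes SMARCA4 and SMARCA2 are shown because these alternative subunits differed in level, and that of SMARCE1 because its counts behaved unlike those of the other subunits. Capitals mark CpG dinucleotides, the sites of DNA methylation.
SMARCA4, chr19:10960780-10961079, plus strand: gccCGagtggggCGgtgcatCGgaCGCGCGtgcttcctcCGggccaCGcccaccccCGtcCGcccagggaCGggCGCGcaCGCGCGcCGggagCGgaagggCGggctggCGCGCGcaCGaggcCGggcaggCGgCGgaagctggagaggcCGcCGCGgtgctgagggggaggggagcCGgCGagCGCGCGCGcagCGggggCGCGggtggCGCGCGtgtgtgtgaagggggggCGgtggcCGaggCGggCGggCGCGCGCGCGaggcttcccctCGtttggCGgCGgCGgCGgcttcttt
SMARCA2, chr9:2015097-2015396, plus strand: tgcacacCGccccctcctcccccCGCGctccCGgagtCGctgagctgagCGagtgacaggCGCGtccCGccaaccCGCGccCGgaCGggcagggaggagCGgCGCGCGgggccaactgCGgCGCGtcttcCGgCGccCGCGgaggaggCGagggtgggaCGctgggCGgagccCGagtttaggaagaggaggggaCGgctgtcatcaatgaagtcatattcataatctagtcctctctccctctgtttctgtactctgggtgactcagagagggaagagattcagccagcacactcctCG
SMARCE1, chr17:40647769-40648068, minus strand: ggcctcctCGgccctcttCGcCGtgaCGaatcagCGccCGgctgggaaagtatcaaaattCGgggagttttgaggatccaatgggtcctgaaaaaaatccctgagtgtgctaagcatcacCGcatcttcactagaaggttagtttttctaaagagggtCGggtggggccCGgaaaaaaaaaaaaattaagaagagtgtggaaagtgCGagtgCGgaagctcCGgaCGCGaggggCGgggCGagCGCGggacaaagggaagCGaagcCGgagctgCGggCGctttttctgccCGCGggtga
The SMARCA4 promoter held 55 CpGs, the SMARCA2 promoter 30 and the SMARCE1 promoter 25. The median was 30 over the 7 subunit promoters and 14 over 35116 promoters of the same length. The fewest, 5, were in the upstream start of ARID1B. The GC box GGGCGG was present on either strand in 6 of the 7, against 44.95% of all promoters, CCAAT in 3 of 7 against 34.6%, and CGGAAG, the core of the ETS motif, in 3 of 7 against 19.5%. GGGCGG and CGGAAG can overlap. These matches describe the letters only.

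All 10 subunit genes averaged at least 10 CPM, a level that 15.4% of all gene symbols reached. All 10 had a read in at least 50% of the 84 libraries, as did 21.2% of all symbols. SMARCE1 had a read in 84 libraries, SMARCC1 in 83, ARID1B in 82, SMARCA4 in 80, ARID1A in 77, SMARCD1 and ACTL6A in 69 each, SMARCA2 in 59, SMARCB1 in 58 and SMARCC2 in 52. The last share, 61.9%, had an exact Clopper-Pearson 95% interval of 50.7 to 72.3, which covers counting error only. With every library thinned to 100000 reads, SMARCA2, SMARCC2 and SMARCB1 were seen in 23, 34 and 39 libraries. The median library showed a read of 9 of the 10 genes, and 28 libraries showed all 10. After thinning the median was 7, and 3 libraries showed all 10. The number of subunits with a read was larger in deeper libraries (Spearman's rho with reads on genes 0.40 across 84 libraries of 1 plate).

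**Figure D1:**
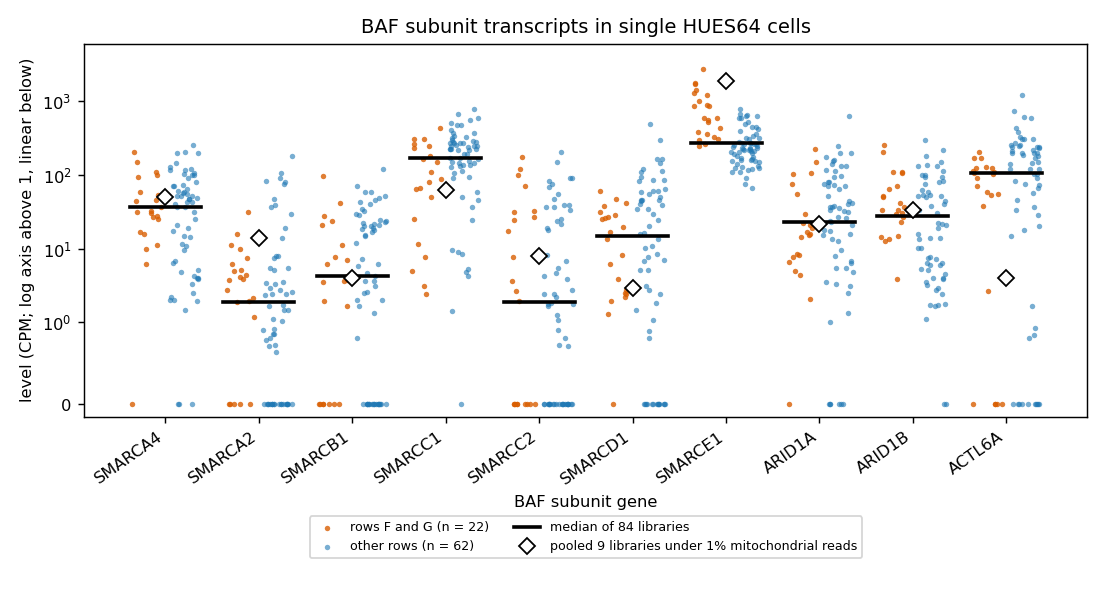
Levels of the 10 subunit genes in CPM (log axis above 1, linear below); points are single libraries, rows F and G on the left of each gene and the other rows on the right, bars are medians of 84 libraries and diamonds the pooled 9 libraries under 1% mitochondrial reads. The median of SMARCC1 is 171 CPM and that of SMARCC2 1.89 CPM, and the diamond of SMARCE1 lies at 1903 CPM, above its median of 269 CPM.

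Among the ATPases, SMARCA4 on chromosome 19 (10960825 to 11079426, GRCh38, GENCODE 29) exceeded SMARCA2 on chromosome 9 (1980290 to 2193624) in most cells. SMARCA4 ran from 0 to 253 CPM with a median of 37.02 and averaged 52.96 ± 56.1 CPM (SD, n = 84). SMARCA2 ran from 0 to 180 CPM with a median of 1.91 and averaged 11.97 ± 28.7 CPM, and only 15 libraries reached 10 CPM, against 63 for SMARCA4. The highest library of SMARCA2, well E5, held 17.9% of its summed CPM, and without it the mean was 9.95 CPM. Levels overlapped across cells, but within cells SMARCA4 was the higher per kb of transcript in 69 libraries and SMARCA2 in 14. The median log2 ratio of SMARCA4 over SMARCA2, from CPM per kb plus 1, was 1.88 (SD 2.07, n = 84), and the ratio of the means was 4.71, from 9.61 and 2.04 CPM per kb. Reads of both ATPases were present in 56 libraries, of SMARCA4 alone in 24, of SMARCA2 alone in 3 and of neither in 1. At 100000 reads these counts were 17, 51, 6 and 10. In 3 libraries SMARCA2 exceeded SMARCA4 by more than 4-fold on that log2 scale. The pool under 1% mitochondrial reads held 9.17 CPM per kb of SMARCA4 and 2.36 of SMARCA2. On the CPM scale SMARCA4 averaged 52.96 against 50.5 in the pool, and SMARCA2 11.97 against 13.9. The pool value of SMARCA4 rested on 51 reads, with 216 CPM in well E6 and 7.99 to 64.4 CPM in the other 8 libraries.

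The SMARCC scaffold proteins showed the widest gap between paralogous members. SMARCC1 (BAF155), on chromosome 3 from 47585272 to 47782106, ran from 0 to 793 CPM with a median of 171 and a mean of 197 ± 165 CPM. SMARCC2 (BAF170), on chromosome 12 from 56162983 to 56189567, ran from 0 to 205 CPM with a median of 1.89 and a mean of 21.9 ± 40.9 CPM. The upper quartile of SMARCC2 was 25.6 CPM and the lower quartile of SMARCC1 64.7 CPM, so the middle parts of the distributions did not overlap, though the extremes did. Per kb, SMARCC1 was higher in 76 libraries and SMARCC2 in 7. The median log2 ratio of SMARCC1 over SMARCC2 was 3.03 (SD 2.33, n = 84), and the means were 30.97 and 5.32 CPM per kb. No library had reads of SMARCC2 without reads of SMARCC1, while 31 had SMARCC1 alone and 52 had both. In the pool the levels were 9.94 and 1.93 CPM per kb, and of the 9 libraries well H4 had 341 CPM of SMARCC1 and the others 7.99 to 53.3. On the CPM scale SMARCC1 stood 3.11 times and SMARCC2 2.76 times above the pool. Without well H4 the pool held 27 reads of SMARCC1 in place of 64, and the ratio was 6.59. SMARCC2 overlaps MYL6 on the other strand, and reads over both genes are left out of the unstranded column; the stranded columns together held 1.11 times its reads.

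The ARID1 subunits, which direct canonical BAF to its sites, did not show such a gap. ARID1A, on chromosome 1 from 26693236 to 26782110, ran from 0 to 630 CPM with a median of 23.3 and a mean of 56.1 ± 86.3 CPM. ARID1B, on chromosome 6 from 156776020 to 157210779, ran from 0 to 294 CPM with a median of 28.2 and a mean of 49.5 ± 60.8 CPM. Per kb ARID1A was higher in 40 libraries and ARID1B in 43. The median log2 ratio of ARID1A over ARID1B was -0.02 (SD 1.78, n = 84), with quartiles of -0.84 and 1.02. Both genes had reads in 76 libraries, ARID1A alone in 1 and ARID1B alone in 6. Single cells could still lean far to either side: ARID1A led by more than 4-fold in 12 libraries and ARID1B in 6. Counts behind these ratios were low: the median library held 16.5 reads of ARID1A and 17.5 of ARID1B.

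**Figure D2:**
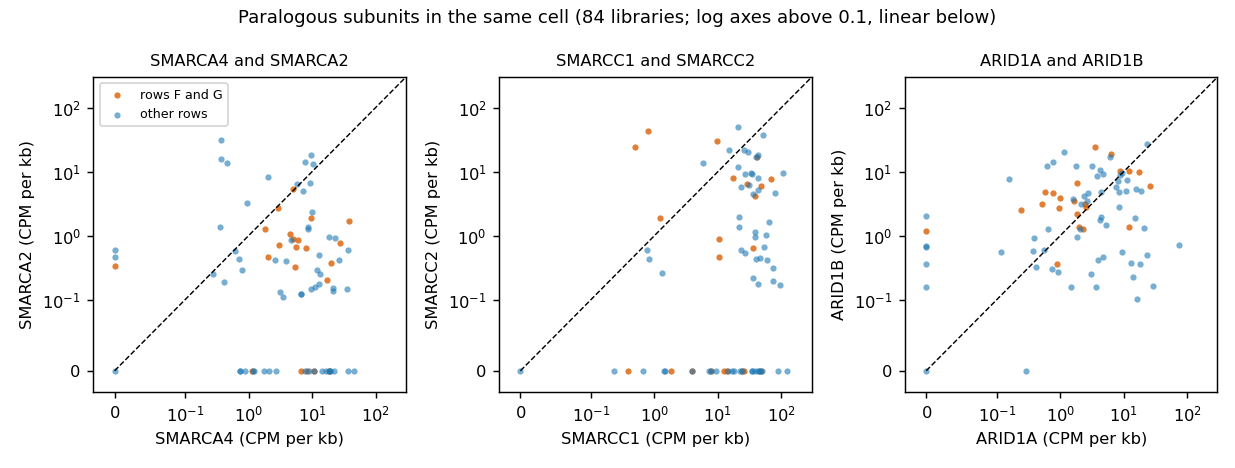
CPM per kb of transcript in each of 84 libraries for SMARCA4 against SMARCA2, SMARCC1 against SMARCC2 and ARID1A against ARID1B (log axes above 0.1, linear below; dashed line, equal levels). Points lie below the line in 69 and 76 libraries in the ATPase and SMARCC panels, and on both sides of it in the ARID1 panel, with 40 libraries below and 43 above.

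ACTL6A (BAF53A), the actin-related subunit of dividing cells, lies on chromosome 3 from 179562880 to 179588408 and ran from 0 to 1217 CPM, with a median of 105 and a mean of 147 ± 187 CPM. It reached 10 CPM in 64 libraries and had no read in 15. The counterpart of neurons, ACTL6B, which is not among the 10, averaged 2.83 ± 14.3 CPM with a median of 0, and 52.3% of its summed CPM came from 1 library. Per kb ACTL6A was higher in 66 libraries and ACTL6B in 9, with a median log2 ratio of 5.30 (SD 3.28). ACTL6A overlaps MRPL47 on the other strand, and the stranded columns together held 1.36 times its unstranded reads, so its CPM leaves some reads out. SMARCD1 (BAF60A), on chromosome 12 from 50084972 to 50100712, is the SMARCD protein of the list, a family that links the core to transcription factors. It ran from 0 to 492 CPM with a median of 14.8 and a mean of 38.6 ± 69.8 CPM. Per kb it was higher than SMARCD2 in 52 libraries and lower in 28, and higher than SMARCD3 in 59 and lower in 16. The median log2 ratios were 0.79 (SD 2.01) and 1.53 (SD 2.05). SMARCB1 (SNF5, BAF47), the core subunit that contacts the nucleosome and a tumour suppressor, lies on chromosome 22 from 23786931 to 23838008. It ran from 0 to 121 CPM with a median of 4.26 and a mean of 15.1 ± 22.3 CPM, and 34 libraries reached 10 CPM.

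SMARCE1 (BAF57), a DNA-binding subunit with an HMG domain on chromosome 17 from 40624962 to 40648864, had the highest mean CPM of the 10 and behaved differently from the rest. It ran from 67.5 to 2751 CPM with a median of 269 and a mean of 427 ± 432 CPM, and no library lacked it. In the 9 libraries under 1% mitochondrial reads it was higher still, from 1045 to 3527 CPM, and pooled at 1903 CPM, against the mean of 427 in the 84. The pooled value rested on 1921 reads (exact Poisson 95% interval 1819 to 1990 CPM). The groups overlapped only in the upper tail of the 84, and within either set of rows they did not overlap. In rows F and G the used libraries reached 2751 CPM and the pool wells started at 3524. In rows A to E and H the used libraries reached 786 CPM and the pool wells started at 1045. Across the 84 libraries SMARCE1 had a rho of -0.63 with reads on genes and of 0.58 with DPF3, a BAF-associated gene at 883 ± 1180 CPM in the 84 and 6357 CPM in the pool. Within rows A to E and H these were -0.49 and 0.40. Its rho with ACTB was -0.46 and with POU5F1 -0.29, and within rows A to E and H -0.26 and -0.23. Whether reads other than those of the SMARCE1 messenger RNA enter this count was not tested. The file also listed 7 loci named as SMARCE1 pseudogenes, which averaged 0 to 2.39 CPM, and reads that map to several places are not in the counts.

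**Figure D3:**
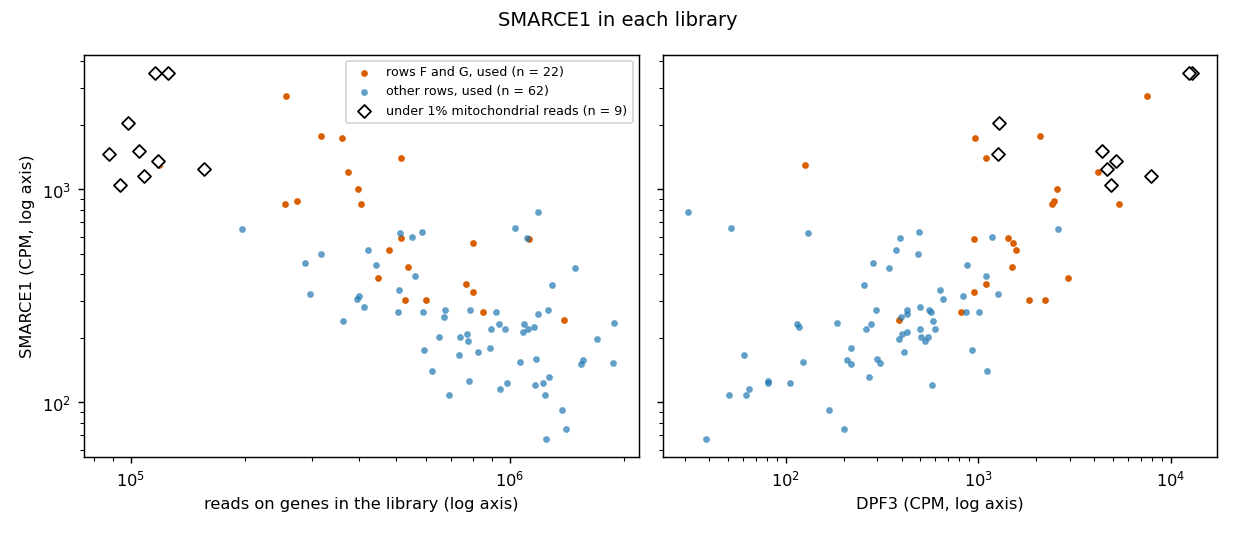
SMARCE1 in CPM against reads on genes (left) and against DPF3 in CPM (right), both on log axes, in each library; circles are the 84 used libraries, by plate row, and diamonds the 9 libraries under 1% mitochondrial reads. The diamonds run from 1045 to 3527 CPM at the shallow end, and SMARCE1 is lower in deeper libraries (rho = -0.63, n = 84).

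Per kb of the transcript with the longest coding sequence, the mean levels ordered the genes as ACTL6A (77.5 ± 98.4 CPM per kb), SMARCE1 (68.9 ± 69.8), SMARCC1 (30.97 ± 25.8), SMARCD1 (10.6 ± 19.1), SMARCA4 (9.61 ± 10.2), SMARCB1 (8.81 ± 12.98), ARID1A (6.54 ± 10.1), SMARCC2 (5.32 ± 9.93), ARID1B (4.58 ± 5.63) and SMARCA2 (2.04 ± 4.89; SD, n = 84). Each step between neighbours was smaller than the larger SD of the pair. Medians kept ACTL6A, SMARCE1 and SMARCC1 in front, at 55.2, 43.5 and 26.8 CPM per kb, and SMARCA2 last at 0.326. Divided by the union of all annotated exons instead, ACTL6A had 40.1, SMARCC1 25.8 and SMARCE1 22.9 CPM per kb, so SMARCC1 then stood above SMARCE1. SMARCE1, SMARCC1 and ACTL6A supplied 75.8% of the summed CPM of the 10 genes.

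Set against the pool of libraries under 1% mitochondrial reads, the subunits ran from 0.224 to 37.2 times its level. ACTL6A stood 37.2 times above it and SMARCD1 13 times, the only 2 of the 10 above 5-fold, compared with 44.9% of the 9003 genes that averaged 10 CPM or more. Above 2-fold were 6 of the 10 and 66.4% of the genes, and below the pool 2 of the 10 and 22.6%. The pool held 4 reads of ACTL6A and 3 of SMARCD1, giving exact Poisson 95% intervals of 1.08 to 10.1 and 0.613 to 8.68 CPM. In these ratios a pool level under 3 reads was set to 3 reads. The count of 2 became 3 without well H4, where SMARCC1 passed 5-fold as well, at 6.59. Without any other single pool library it stayed at 2. Without well C2 SMARCB1 had 2 pool reads left and a ratio of 4.59, not past 5-fold. From the 2 reads themselves the ratio was 6.89, with a counting interval of 1.91 to 56.9. Without well E6 SMARCD1 had 1 pool read left and a ratio of 11.9. From that read itself the ratio was 35.6, with a counting interval of 6.39 to 1406. With all 9 libraries SMARCB1, SMARCC1, SMARCC2 and ARID1A lay between 2.58 and 3.82 times the pool. ARID1B and SMARCA4 had ratios of 1.47 and 1.05, while SMARCA2 and SMARCE1 lay below it, at 0.863 and 0.224. The median log2 ratio was 1.41 for the 10 genes and 2.07 over the 9003. With DESeq2 size factors the median of the 9003 genes moved to 4.24, 7 of the 10 passed 5-fold as 75.6% of the genes did, and SMARCA2 turned to 4.28 times the pool. SMARCA4 then stood at 4.51 times the pool and SMARCE1 at 0.865. Relative to the median of all genes, SMARCE1 was lower by a log2 difference of -4.23 and ACTL6A higher by 3.14, and by -4.45 and 3.14 with those size factors.

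Libraries of plate rows F and G stood apart on this plate and were set against the other rows, 22 against 62 libraries. These rows were picked with earlier results of the data known. SMARCE1 averaged 849 ± 635 CPM in rows F and G and 277 ± 168 CPM in the other rows, 3.06 times higher, and its row medians were 853 and 433 CPM in F and G and 157 to 265 CPM elsewhere. The sets overlapped, since rows F and G started at 244 CPM and the others reached 786. SMARCE1 was the only 1 of the 10 more than 2-fold higher in rows F and G, where 12.1% of the 9003 genes were. SMARCA2, SMARCD1 and ACTL6A were more than 2-fold lower, as were 13.1% of the genes. Either way past 2-fold were 4 of the 10 and 25.2% of the genes, and past 1.5-fold 5 of the 10 and 47.4%. Without well A5 ACTL6A had a ratio of 0.505 and was not past 2-fold, and without well F10 SMARCB1 was, at 0.486. With the reverse-strand column only SMARCE1 and SMARCD1 were past 2-fold, and ACTL6A and SMARCA2 had ratios of 0.508 and 0.521. SMARCA2 averaged 5.39 ± 7.08 CPM in rows F and G and 14.3 ± 32.9 in the others. Its medians, 3.80 and 1.30 CPM, went the other way, and without well E5 the gene no longer averaged 10 CPM. SMARCD1 averaged 18.6 ± 17.6 and 45.7 ± 79.6 CPM, with medians of 15.2 and 14.7. ACTL6A averaged 78.1 ± 62.7 and 172 ± 210 CPM, with medians of 80.7 and 122. SMARCC1 had medians of 83.3 and 218 CPM. With DESeq2 size factors the median log2 ratio of all genes moved from -0.15 to -0.64, 7.08% of genes were called higher and 31.3% lower, none of the 10 was called higher and 6 were called lower, SMARCE1 stood at a log2 ratio of 0.90 and ARID1B turned from 0.43 to -0.19. Rows F and G also had fewer reads on genes (median 498244 against 889048), more genes at 100000 reads (8962 against 7346) and less KCNJ2 (1829 against 13202 CPM). Some markers of other cell types also stood more than 2-fold higher in rows F and G. These were 4 of 8 neural, 4 of 6 trophoblast or amnion and 3 of 7 fibroblast markers, against 0 of 9 pluripotency markers. Of those called, only PAX6, DCX and GATA3 averaged 10 CPM or more, the level behind the 12.1%. The neural, fibroblast and trophoblast or amnion lists held 5, 2 and 1 markers at that level. The others called were lower, with few reads. PAX6 was 3.76-fold, GATA3 3.92-fold, TFAP2A, at a mean of 4.68 CPM, 7.34-fold and DPF3 4.62-fold higher, beside the 3.06-fold of SMARCE1. Each of these genes averaged less in the 84 libraries than in the pool. The part of reads on genes, genes seen, KCNJ2 or the markers in the differences was not tested. Of the paralogue ratios, SMARCA4 over SMARCA2 had a median log2 ratio of 1.95 in rows F and G and 1.83 in the others, and SMARCC1 over SMARCC2 had 2.71 and 3.37. ARID1A over ARID1B differed in sign between the sets, with -0.51 in rows F and G, where ARID1A was the higher in 7 of 22 libraries, and 0.14 in the others, where it was the higher in 33 of 62.

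**Figure D4:**
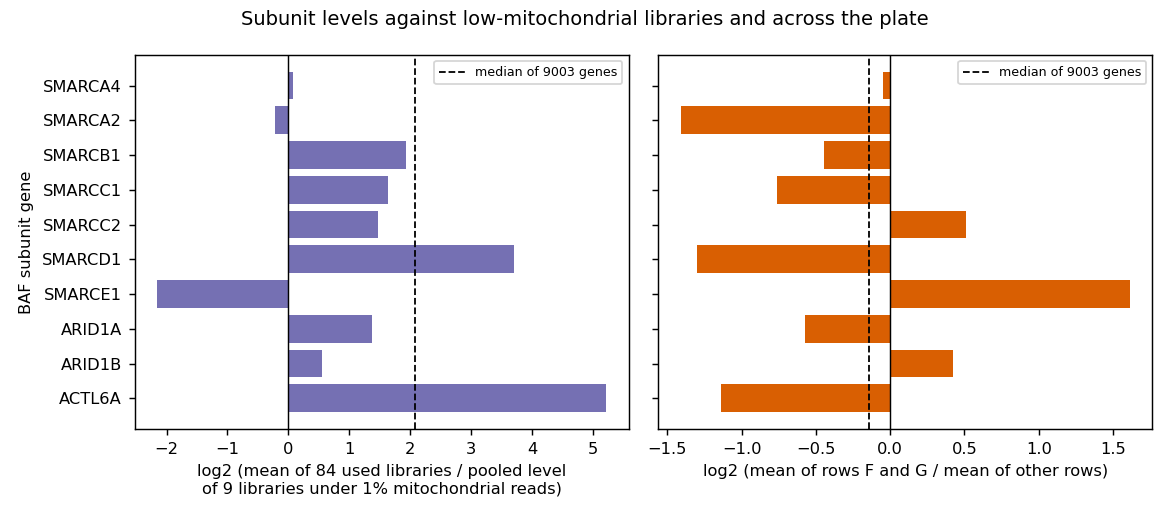
Left, log2 ratio of the mean CPM in the 84 used libraries to the pooled level of the 9 libraries under 1% mitochondrial reads; right, log2 ratio of the mean CPM in rows F and G to that in the other rows; dashed lines are medians of 9003 genes. SMARCE1 is the lowest on the left, at 0.224 times the pool, and the highest on the right, at 3.06-fold.

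Variation from cell to cell was not unusual for the level of these genes. Variability was the excess of the log2 squared coefficient of variation over a trend on the mean, and none of the 10 reached an excess of 1, which 13.2% of 8995 genes did. Without each gene's highest library 7.53% of genes passed, and again none of the subunits, SMARCA2 being then under 10 CPM and not scored. The values ran from -1.24 for SMARCA4 and -1.13 for SMARCB1 to 0.23 for ACTL6A and 0.50 for SMARCE1, with a median of -0.18 over the 10 and -0.03 over the 8995. No test between cells of 1 group underlies these values.

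The subunits varied together only weakly. The median Spearman's rho of the 45 pairs was 0.14 across 84 libraries, which share culture, plate and differences in depth, and that of all pairs among 8185 genes was 0.09, with quartiles of -0.02 and 0.20. The strongest pair was SMARCB1 with SMARCD1 (rho = 0.48), then SMARCA4 with SMARCD1 (0.36) and SMARCC1 with SMARCD1 (0.32). SMARCB1 with SMARCD1 had 0.10 in rows F and G and 0.53 in the other rows. The alternative ATPases had rho = -0.14, and SMARCC1 with SMARCC2 had 0.15. SMARCE1 was negative with 6 of the other 9 genes, lowest with SMARCC1 at -0.27, and its median rho with all 8185 genes was also below 0, at -0.05. With SMARCC1 it had -0.53 in rows F and G and -0.12 in the other rows. In the other rows SMARCE1 turned positive with SMARCA4 and SMARCD1 (0.06 and 0.05) and negative with ARID1B (-0.06). Without SMARCE1 the median of the other 36 pairs was 0.15. With ranks residualised on reads and genes detected the median of the 45 pairs was 0.06. Apart from SMARCE1 (-0.24), the genes had positive rho with GAPDH, from 0.16 for SMARCA2 to 0.47 for SMARCB1 and SMARCD1. Within rows A to E and H SMARCE1 had -0.08 with GAPDH. POU5F1 itself had 0.69 with GAPDH across the 84 libraries.

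**Figure D5:**
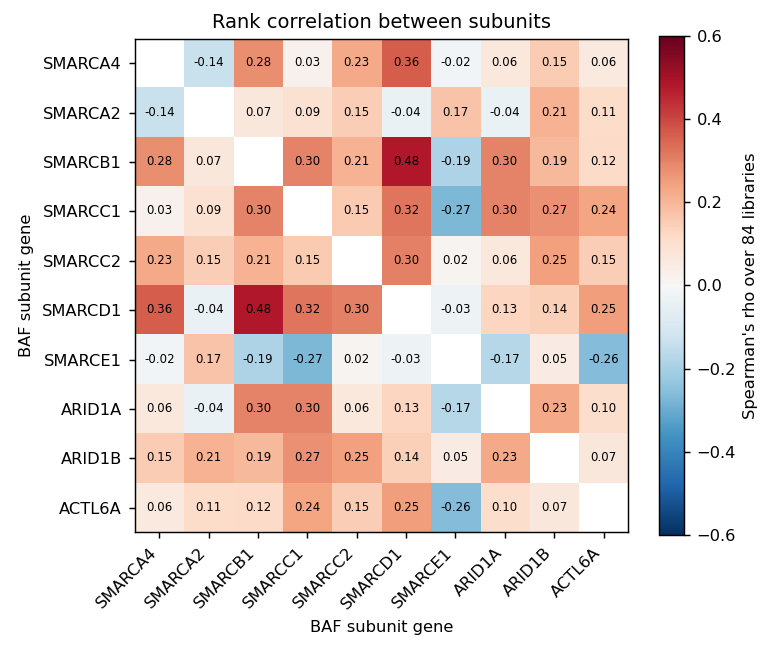
Spearman's rho between each pair of subunit genes over 84 libraries, from blue (negative) to red (positive). The darkest square off the diagonal is SMARCB1 with SMARCD1 at 0.48, and the row of SMARCE1 holds 6 negative values of 9.

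The genes most like the 3 leading subunits were sought among the 8185 genes by rho over the 84 libraries. For SMARCE1 they were SORBS2 (0.76), SLC7A9 (0.76) and RP11-234O6.2 (0.76), which averaged 175, 113 and 89.03 CPM in the 84 libraries, against 861, 568 and 447 CPM in the pool under 1% mitochondrial reads. For SMARCC1 they were ATP6V1A (0.52), NUP88 (0.51) and SNX27 (0.51), and for ACTL6A they were FAM98B (0.55), NUP88 (0.55) and NGDN (0.51). ATP6V1A, SNX27, FAM98B and NGDN lay 9.31 to 24.4 times above the pool, and NUP88 averaged 49.7 CPM with 1 read, 0.991 CPM, in the pool. Within rows A to E and H the rho of SMARCE1 with each of its neighbours was 0.60, and in rows F and G it was 0.74 to 0.85. SMARCE1 thus stood nearest to genes that are higher in the pool, as 22.6% of the 9003 genes averaging 10 CPM or more were. SMARCC1 and ACTL6A stood nearest to genes that are lower there, as most of the 9003 were.

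The other 20 genes of the family were read in the same way. An average of at least 10 CPM was found in 12 of the 20, against 15.4% of all gene symbols. Of the 20, 10 averaged less than in the pool. Among the 12 these were DPF3, GLTSCR1L and BCL11B only, where 22.6% of the 9003 genes averaging 10 CPM or more did so. The rest of the 10 averaged under 10 CPM, so that share does not apply to them. The subunits of PBAF, the form of the complex with ARID2 in place of ARID1, were all present. ARID2 averaged 150 ± 168 CPM against 49.5 in the pool, PBRM1 131 ± 200 against 7.92, BRD7 86.9 ± 130 against 5.94 and PHF10 56.1 ± 91.1 against 37.6. Of the non-canonical form, BRD9 averaged 11.4 ± 21.9 CPM against 8.91, GLTSCR1L 10.01 ± 22.1 against 13.9 and GLTSCR1 4.88 ± 5.93 against 21.8. SS18, which binds the ATPase, averaged 92.4 ± 102 CPM against 11.9, and DPF2, the common member of its family, 24.5 ± 42.2 against 4.95. BCL11A averaged 57.4 ± 82.2 CPM and BCL11B 12.7 ± 41.8, with 34.8% of the summed CPM of BCL11B in 1 library. PBRM1, BRD7 and SS18 were the only 3 of the 20 above 5 times the pool. All 3 were among the 12 averaging 10 CPM or more, a level at which 44.9% of the 9003 genes passed.

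Subunits tied to neurons or muscle were mostly low. DPF1 averaged 5.74 ± 10.5 CPM, SMARCD3 2.699 ± 4.701 and ACTL6B 2.83 ± 14.3, against 21.8, 6.93 and 9.91 CPM in the pool. SS18L1 averaged 43.6 ± 109 CPM with a median of 3.64, against 23.8 in the pool. DPF3 went the other way from the group with 883 ± 1180 CPM and a median of 496, yet it was at 6357 CPM in the pool. Its mean in the 84 libraries was therefore below that in libraries with few signs of a cell, as for SMARCE1.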

How the data were processed

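Poly(A) RNA of single HUES64 cells was read by SMART-seq2 with Nextera XT libraries, per the labels' protocols. The submitters' processing notes name STAR 2.7.3a and FastQC as tools, and hg38 and GRCh38.p2 as builds. Which annotation was counted, and whether reads were trimmed or deduplicated, is not given in the sources used here. The deposited tables hold raw counts of reads per gene, without regard to strand and per strand, under 4 summary lines that held 88.8% of all reads and were left out. There were no molecular identifiers, so intervals cover counting error only.

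The unstranded column was scaled to CPM. Wells were taken from the titles, which differ from the deposited tables' own names for wells of plate columns 1 and 12, all in 1 group, and 3 of the 96 libraries were in neither the 84 used nor the pool of 9. Positions and lengths came from GENCODE 29 (GRCh38), not known to be the authors' annotation. Variability used a lowess trend (span 0.5) over genes averaging 10 CPM or more that 10% or more of the libraries detected; a pseudocount of 1 CPM per kb entered log2 ratios. Thinning used seed 1. Steps were tested on simulated data. The members, lists and thresholds were chosen with earlier results of these data known. Named genes are the members, the 4 highest of a list, other BAF genes averaging 10 CPM or more, tissue-restricted subunits and the 3 nearest genes of the 3 leading members; ACTB, KCNJ2, POU5F1, GLTSCR1, SMARCD2, further ATPases and low marker genes were chosen after their values were seen. Python 3.11.15, scipy 1.17.1, statsmodels 0.14.6 and, for size factors as an alternative scaling only, DESeq2 1.42.0 were used.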

Additional observations from a re-analysis of the deposited data

How the results depend on the processing

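There were 19 planned settings and, added after seeing the data, 3 more and the leaving out of single libraries. The SD between cells exceeds most subunit means and is no measure of stability. Apart from size factors, which change the scale, 89 of 90 mean levels stayed within 1.5 times of the reported one, from 0.649 to 1.25 times, the lowest being SMARCE1 without rows F and G. Past 2-fold between rows F and G and the other rows were 2 of the 10 genes with the reverse-strand column, in place of 4. Above 5 times the pool under 1% mitochondrial reads were 7 with DESeq2 size factors, in place of 2, and 6 passed when the fold was 2; the cause of the first was not tested. Leaving out 1 library gave 3 to 5 genes between rows and 2 to 3 above the pool. The log2 ratio, a median except where the ratio of means was the setting, ran from 1.19 to 3.64 for SMARCA4 over SMARCA2. It ran from 2.54 to 4.59 for SMARCC1 over SMARCC2 and from -0.35 to 0.51 for ARID1A over ARID1B. For the last the sign turned with the setting (above 0 in 4 and below 0 in 7 of 13). The ends at 2.54 and 0.51 were ratios of means, and among medians these ends were 2.79 and 0.43. The median rho between subunits ran from 0.06 to 0.15. The 50% detection mark was reached by 7 subunits after thinning and 8 when 3 reads were asked for. Without each gene's highest library 9 genes averaged 10 CPM, SMARCA2 having dropped out. Depth limits SMARCA2, SMARCC2 and SMARCB1 most, with medians of 1, 1 and 3.5 reads per library. No paired analysis was possible because all libraries form 1 group and the labels give no replicate numbers.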

Other observations

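Catalytic subunits of other remodelling families were read beside BAF, as description. Of 14 such genes 13 averaged at least 10 CPM, against 15.4% of all gene symbols. Above 5 times the pool of libraries under 1% mitochondrial reads stood 6 of the 14, near the 44.9% of the 9003 genes averaging 10 CPM or more. Per kb, HELLS, a remodeller needed for DNA methylation, averaged 82.4 CPM per kb, SMARCA5 of the ISWI family 32.7, ATRX 30.7, SMARCAD1 28.7 and SMARCA1 27.7, next to 9.61 for SMARCA4 and 2.04 for SMARCA2. In all 8 of the 14 lay above SMARCA4 and 6 below it, namely CHD8 with 7.51, CHD2 with 6.499, EP400 with 5.13, INO80 with 4.47, CHD3 with 2.81 and SRCAP with 0.624. Divided by the union of exons, HELLS had 25.4 CPM per kb and SMARCA5 30.9, so their order turned, and 3 of the 14 lay below SMARCA4 at 3.36. In CPM, HELLS had 258 ± 179 against 9.91 in the pool, SMARCA5 259 ± 309 against 11.9, ATRX 343 ± 329 against 121 and CHD7 159 ± 159 against 98.1 (SD, n = 84). CHD3, INO80, EP400 and SRCAP averaged less than the pool, with 20.6, 28.8, 65.8 and 7.33 CPM against 109, 172, 110 and 12.9.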
